A study of Mus musculus with 89 samples.

Results

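The caspases and lytic cell death effectors followed here in mouse lung were 8 genes: Casp1, Casp4 and Casp8, which encode caspases, Gsdmd, Mlkl and Ripk3, which encode executioners and a kinase of lytic cell death, and Bcl2l11 and Bbc3, which encode the BH3-only proteins BIM and PUMA. The genes were chosen by name, and their probes were found through the transcript accession given for each non-control spot. They were 8 of 22911 genes, and 12 of 56605 probes measured them. Female BALB/c mice were all sensitised to ovalbumin (OVA) with alum, so the control mice carried the sensitisation too. The lungs were then challenged with PBS or OVA, alone or together with core CuO or with CuO whose surface carried COOH, NH3 or PEG, at 2.5, 10 or 40 µg/mouse by oropharyngeal aspiration on 4 consecutive days, and lung tissue was taken 24 h after the last. The 89 samples formed 26 groups, with 7 PBS controls, 8 OVA controls, 4 samples each of CuO NH3 10 and CuO PEG 10 and 3 of every other group. The lungs had been lavaged before part of the left lobe was taken for RNA, and RNA from 2 lung samples was pooled for each array sample. Doses were masses of material, and the copper share of that mass was not the same in the 4 materials.

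Cell death that breaks the plasma membrane has a small set of effectors. In necroptosis, death receptors of the TNF family or sensors of nucleic acids lead to the kinase RIPK3, which phosphorylates the pseudokinase MLKL, and MLKL then opens the membrane, while caspase-8 cleaves RIPK3 and its partner RIPK1 and so restrains the process. In pyroptosis, caspase-1 is activated in inflammasomes and mouse caspase-4, also called caspase-11, by cytosolic lipopolysaccharide, and both cut gasdermin D, whose fragment forms pores. BIM and PUMA belong to the non-lytic, mitochondrial route, since they neutralise the survival proteins of the BCL2 family. These proteins are largely switched on by cleavage or phosphorylation, so an array of transcripts reports how much of their message was present and not whether they were active. In the lung, macrophages, neutrophils and the epithelium can all express them.

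The upstream sequences of Ripk3, Mlkl and Casp4 are shown because these members were called higher after exposure. They were called in 10, 6 and 2 of the 24 exposure comparisons, in sets of groups that coincided only in part. A start site was found in the RefSeq promoter table (GRCm38.p6) for 7 of the 8 members, Gsdmd being the other, and the 250 bases before it are given 5′ to 3′ on the gene's strand. For Casp4, the first of 2 listed starts is shown. Capitals mark matches, on either strand, to any of 5 motifs that were searched: the core of the interferon-stimulated response element (GAAA, any 2 bases, GAAA), the gamma interferon activation site (TTCNNNGAA), the AP-1 site (TGANTCA), the NF-kB site (GGG, any 2 bases, TTTCC) and the core of the metal response element (TGCNCNC).
Ripk3, chr14:55788858-55789107, minus strand: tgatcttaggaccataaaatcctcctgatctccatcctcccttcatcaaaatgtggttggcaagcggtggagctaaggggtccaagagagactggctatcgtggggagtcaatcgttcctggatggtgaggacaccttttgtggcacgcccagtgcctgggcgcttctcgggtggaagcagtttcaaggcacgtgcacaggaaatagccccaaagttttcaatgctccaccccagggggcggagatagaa
Mlkl, chr8:111338206-111338455, minus strand: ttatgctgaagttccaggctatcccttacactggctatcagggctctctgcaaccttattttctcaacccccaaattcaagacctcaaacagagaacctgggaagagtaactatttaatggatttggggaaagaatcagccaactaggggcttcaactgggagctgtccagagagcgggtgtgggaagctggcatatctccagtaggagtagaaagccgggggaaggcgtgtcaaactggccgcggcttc
Casp4, chr9:5308599-5308848, plus strand: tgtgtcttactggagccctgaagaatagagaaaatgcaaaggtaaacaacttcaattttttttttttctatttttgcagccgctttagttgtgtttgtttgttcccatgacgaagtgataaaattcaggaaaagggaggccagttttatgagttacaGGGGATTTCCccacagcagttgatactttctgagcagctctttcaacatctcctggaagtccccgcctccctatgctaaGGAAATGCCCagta
The Casp4 sequence held 2 matches to the NF-kB motif, GGGGATTTCC on the plus strand starting 93 bases before the start site and GGAAATGCCC, a minus-strand match, starting 14 bases before it. That motif was present in 1.41% of the 32851 upstream sequences of the same length. The interferon-stimulated element was present in 2.98%, the gamma interferon site in 7.02% and the AP-1 site in 6.75%. A Bbc3 sequence, at 1 of 3 listed starts, held 1 match to the NF-kB motif as well, 136 bases before the start. The Ripk3 and Mlkl sequences, like those of Casp1 and Casp8, held 0 matches to the 5 motifs. The metal response element core was present in 44.4% of all upstream sequences and, among the members, in those of Bcl2l11 and Bbc3. These are matches of letters, and no binding was measured.

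Levels are log2 intensities after quantile normalisation, with the estimated shift of dye, slide and array position removed, and are compared between groups of a gene and not between genes. Fold changes come from limma fits in which dye and array were fixed terms, so they can differ from the difference between printed levels. In the 24 exposure comparisons, the fit and the printed means had the same direction in all 18 member calls, although the fit was over 1.5 times the difference of the means in 4 of them. Of the 174 member tests without a call, 34 had opposite directions, 12 of them in Bbc3, and such estimates give no direction. A call needed both an adjusted p under 0.05 (Benjamini-Hochberg over all genes of a comparison) and a log2 fold change beyond 0.58 in size, about 1.5-fold. The probes of the other 7 members were well above background in 89 of 89 samples, while of the 4 Bcl2l11 probes 1 was well above background in 43 samples and another in 84. Markers of lung tissue were well above background in all 89 samples for all 7 alveolar type 2, all 5 alveolar type 1 and all 6 ciliated and club cell genes listed. The tests measure the spread between these pooled samples.

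In PBS-challenged lungs Ripk3, Mlkl and Casp4 were called higher in some exposed groups, none of them given CuO PEG. The other members had no call. All of these comparisons share the same PBS controls. Of 96 tests of a member in an exposed group against the PBS controls, 12 passed, all of them higher, against 2.77% of all gene tests called higher in the same 12 comparisons. They were Ripk3 in 7 groups, Mlkl in 3 and Casp4 in 2, while 29 of the 96 tests had an unadjusted p below 0.05. In the groups with a call, the share of all genes called higher was 7.96% with CuO 40, 6.05% with CuO COOH 40, 7.27% with CuO NH3 40, 2.57% with CuO 10, 2.53% with CuO COOH 10, 2.62% with CuO NH3 10 and 0.349% with CuO COOH 2.5. In OVA-challenged lungs 6 of 96 tests against the OVA controls passed, all higher, in Ripk3 and Mlkl in 3 groups each, against a background of 0.691% called higher, and 26 had an unadjusted p below 0.05. There the share of all genes called higher was 2.23% with CuO COOH 40, 2.1% with CuO NH3 40, 1.43% with CuO NH3 10, 0.441% with CuO NH3 2.5 and 0.388% with CuO PEG 40. These shares include dim genes. Leaving out dim probes, well above background in under 50% of samples, left 15441 genes. Of their tests, 7.2% under PBS and 2% under OVA were called in either direction, against 4.41% and 1.2% for all genes. The median log2 fold change of the 8 members ran from -0.08 to 0.25 over the 12 PBS comparisons and from 0.00 to 0.37 over the 12 OVA comparisons, where the median over all genes stayed between -0.01 and 0.02.

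**Figure D1:**
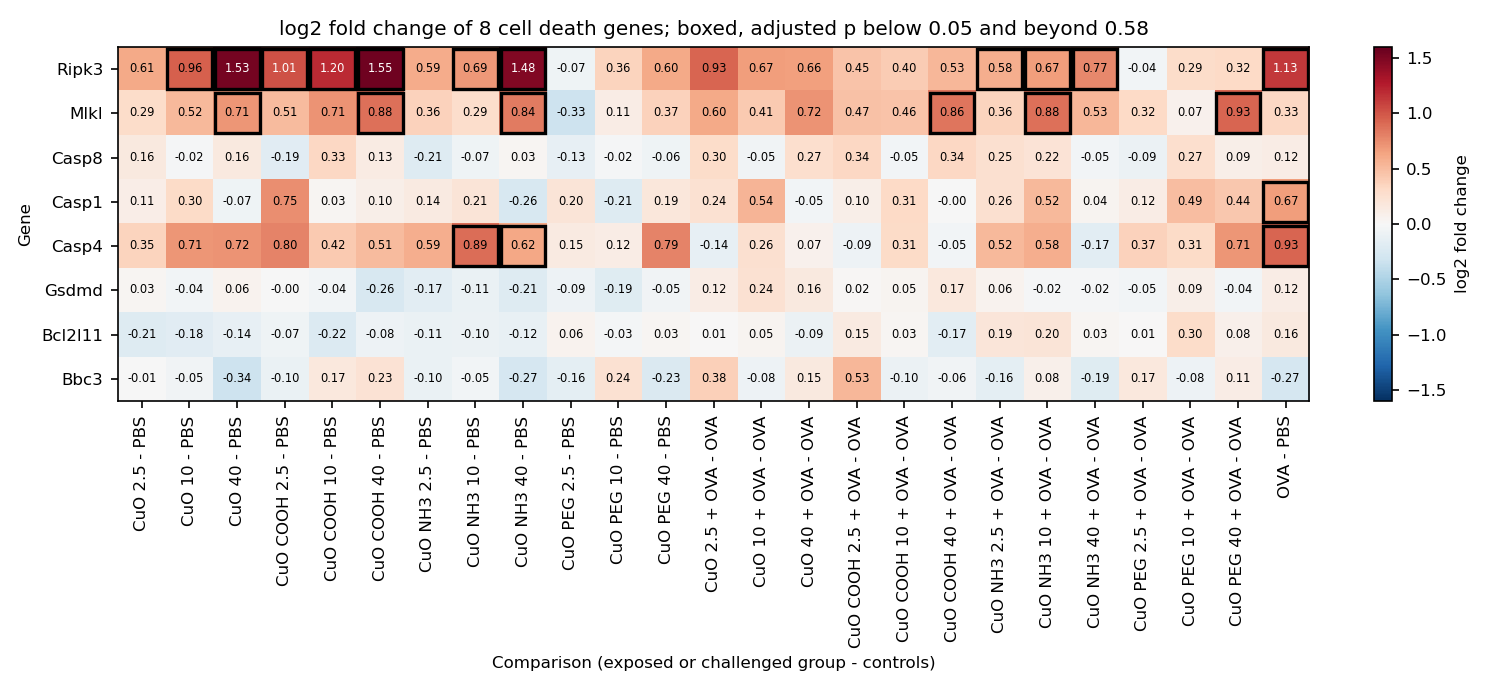
The log2 fold change of the 8 genes (rows) in 12 exposed groups against PBS controls, 12 against OVA controls and OVA against PBS controls (columns), with calls boxed. Ripk3 reached 1.55 with CuO COOH 40, and Casp8, Gsdmd, Bcl2l11 and Bbc3 have no boxed cell.

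Ripk3, the kinase of necroptosis, changed most. In PBS controls its level was 8.42 at the lowest, 8.51 at the median and 8.68 at the highest (mean 8.53 ± 0.09 SD, n = 7). With CuO the 3 samples stood at 9.03, 9.05 and 9.39 at 2.5 µg/mouse, at 9.01, 9.20 and 9.29 at 10 µg/mouse, and at 9.61, 9.97 and 9.83 at 40 µg/mouse. With CuO COOH the values were 9.13, 9.03 and 9.26, then 9.38, 9.44 and 9.23, then 9.86, 9.57 and 9.82 at the same doses. All samples of these 6 groups lay above every PBS control. The CuO NH3 samples read 9.07, 9.08 and 9.22 at 2.5 µg/mouse, 9.14, 9.22, 9.30 and 9.17 at 10 µg/mouse, and 10.01, 9.97 and 9.97 at 40 µg/mouse. The CuO PEG samples read 8.73, 8.67 and 8.95, then 9.23, 8.79, 8.80 and 8.69, then 9.26, 9.24 and 9.05. In 11 of the 12 groups every exposed sample was above the highest PBS control, a pattern that 11.1% of all gene tests showed, and in the remaining group, CuO PEG 2.5, the lowest sample (8.67) fell within the controls.

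The fits put the rise of Ripk3 at 40 µg/mouse at 2.89-fold with CuO (log2 1.53 ± 0.21 SE, adjusted p = 1.56e-05), 2.94-fold with CuO COOH (1.55 ± 0.20, adjusted p = 1.20e-05) and 2.79-fold with CuO NH3 (1.48 ± 0.15, adjusted p = 8.16e-08). At 10 µg/mouse the same 3 materials gave 0.96 ± 0.22 (adjusted p = 0.0123), 1.20 ± 0.22 (adjusted p = 0.00289) and 0.69 ± 0.15 (adjusted p = 0.00632). At 2.5 µg/mouse CuO COOH passed with 1.01 ± 0.22 (adjusted p = 0.0478), where the difference between the printed mean levels was 0.61. CuO and CuO NH3 at 2.5 µg/mouse gave 0.61 ± 0.19 and 0.59 ± 0.17 without passing (adjusted p = 0.14 and 0.107). CuO PEG gave -0.07, 0.36 and 0.60 over its 3 doses, with adjusted p = 0.0704 at 40 µg/mouse, and at 2.5 µg/mouse the printed means differed the other way, by 0.25. Lung tissue was measured in bulk, after lavage, so a change in the number of cells that express a gene and a change of RNA per cell cannot be told apart.

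The calls of Ripk3 with CuO COOH 40 and CuO NH3 40 were kept without each sample in turn, and the one with CuO 40 was lost without CuO 40 replicate 2 (1.51, adjusted p = 0.056). At 10 µg/mouse the call was lost with CuO without CuO 10 replicate 2 (0.97, adjusted p = 0.0819) or PBS replicate 3 (0.96, adjusted p = 0.0617), with CuO COOH without CuO COOH 10 replicate 3 (0.85, adjusted p = 0.205), and with CuO NH3 without CuO NH3 10 replicate 4 (0.53, adjusted p = 0.267). The CuO COOH 2.5 call was the least steady, being lost without either of CuO COOH 2.5 replicates 1 and 3 and without any of PBS replicates 2 to 7, at values of 0.73 to 1.29. With the array as a random term, the changes were 0.55 with CuO 10 and 0.46 with CuO COOH 2.5 and did not pass, nor did the latter against controls of the same slides (0.94, adjusted p = 0.121).

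**Figure D2:**
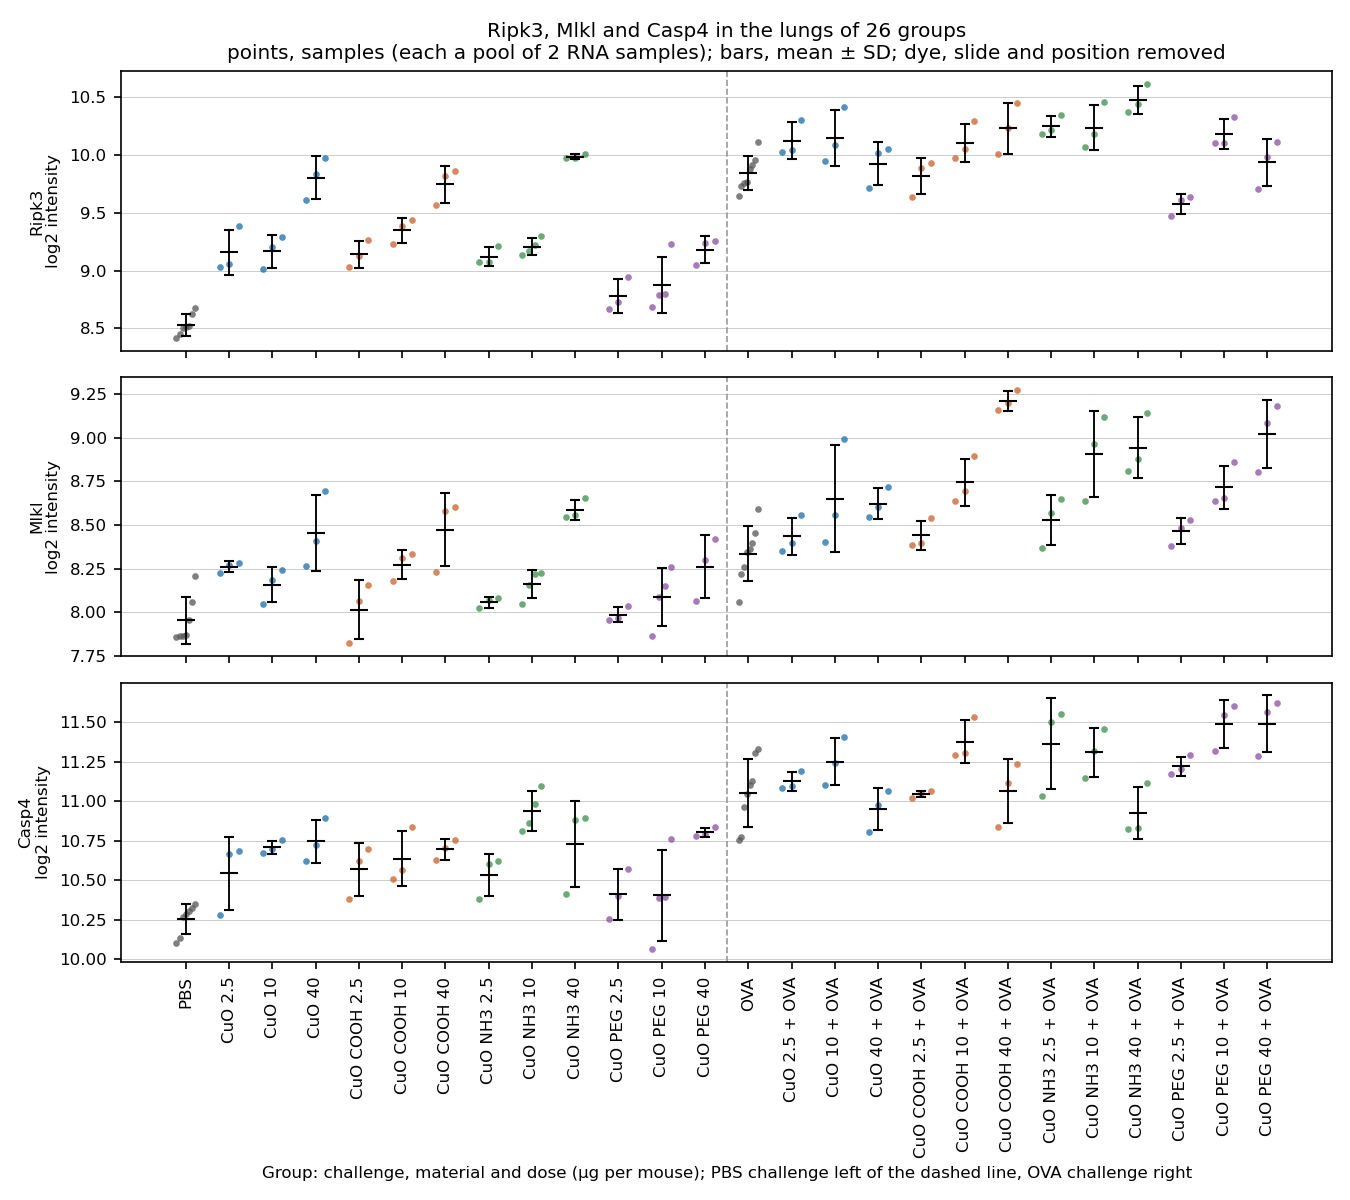
Log2 intensity of Ripk3, Mlkl and Casp4 in each sample (points) of the 26 groups, with mean ± SD as bars and the OVA-challenged groups right of the dashed line. PBS controls have the lowest mean of all groups for each of the 3 genes, and the Ripk3 samples of CuO 40, CuO COOH 40 and CuO NH3 40 reach from 9.57 to 10.01 against 8.68 for the highest PBS control.

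Mlkl, the membrane-permeabilising substrate of RIPK3, rose at the highest dose of 3 materials. PBS controls ranged from 7.86 to 8.21 with a median of 7.87 (mean 7.95 ± 0.13 SD, n = 7). The levels were 8.27, 8.69 and 8.41 with CuO 40, 8.61, 8.23 and 8.58 with CuO COOH 40, and 8.65, 8.56 and 8.55 with CuO NH3 40, all above the highest control. The CuO PEG 40 samples, at 8.30, 8.06 and 8.42, overlapped the controls. Log2 fold changes at 40 µg/mouse were 0.71 ± 0.21 SE with CuO (adjusted p = 0.0211), 0.88 ± 0.20 with CuO COOH (adjusted p = 0.00505), 0.84 ± 0.15 with CuO NH3 (adjusted p = 1.72e-04) and 0.37 ± 0.18 with CuO PEG (adjusted p = 0.373). No call was made at 2.5 or 10 µg/mouse, where the estimates ran from -0.33 with CuO PEG 2.5 to 0.71 with CuO COOH 10 (adjusted p = 0.0825). The difference of the printed means was 0.03 with CuO PEG 2.5, opposite in direction to its fit, and reached 0.32 with CuO COOH 10. The CuO 40 call was lost without CuO 40 replicate 2 (0.13, adjusted p = 0.905) or PBS replicate 3 (0.67, adjusted p = 0.108), and the CuO COOH 40 call without CuO COOH 40 replicate 1 (0.65, adjusted p = 0.119). With slide and position as terms in place of the array, these 2 changes were smaller, 0.50 and 0.52, and no longer beyond 0.58.

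Casp4, the sensor of cytosolic lipopolysaccharide, was higher than in PBS controls in most exposed groups but passed in only 2 of them. Controls ranged from 10.10 to 10.35 with a median of 10.29 (mean 10.25 ± 0.10 SD, n = 7). The CuO NH3 10 samples stood at 10.81, 10.86, 10.98 and 11.10 and those of CuO NH3 40 at 10.89, 10.41 and 10.88. In 9 of 12 groups all exposed samples were above the highest control, the exceptions being CuO 2.5, CuO PEG 2.5 and CuO PEG 10, beside the 11.1% of all gene tests with this pattern. The log2 fold change was positive in 12 of 12 comparisons, with a median of 0.60, and passed with CuO NH3 10 (0.89 ± 0.21 SE, adjusted p = 0.0126) and CuO NH3 40 (0.62 ± 0.21, adjusted p = 0.0302). Estimates of similar size with CuO PEG 40 (0.79 ± 0.24, adjusted p = 0.095) and CuO COOH 2.5 (0.80 ± 0.31, adjusted p = 0.58) did not pass. The CuO NH3 10 call was lost without CuO NH3 10 replicate 4 (0.61, adjusted p = 0.387). The CuO NH3 40 call was lost without CuO NH3 40 replicate 1 or PBS replicate 5 (each 0.66, adjusted p = 0.225) or CuO NH3 40 replicate 3 (0.50, adjusted p = 0.115). It was also short of 0.58 after loess and Aquantile normalisation (0.575), with the array as a random term (0.473) and with slide and position as terms (0.476).

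Casp1, the inflammasome caspase that lies beside Casp4 on the same chromosome, passed in 0 of 12 PBS comparisons, with 1 test at an unadjusted p below 0.05. Its log2 fold changes ran from -0.26 with CuO NH3 40 to 0.75 ± 0.28 SE with CuO COOH 2.5 (adjusted p = 0.505), where the printed mean levels differed by 0.23. PBS controls had a median of 9.16 and reached 9.33. The samples of CuO 40 (8.86, 8.97 and 8.87) and of CuO NH3 40 (8.94, 8.81 and 8.75) all lay below the lowest control, a pattern seen in 9.85% of all gene tests, although the fits gave -0.07 and -0.26 (adjusted p = 0.923 and 0.352). Casp1 and Casp4 are related in sequence, each was measured by 1 probe, and cross-hybridisation between them was not tested.

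Casp8 and Gsdmd, the brake on necroptosis and the pore former of pyroptosis, stayed within a narrow band in the main fits. Casp8 passed in 0 of 24 exposure comparisons and had 0 tests at an unadjusted p below 0.05, with limma estimates of -0.21 to 0.33 under PBS and -0.09 to 0.34 under OVA. Casp8 levels in PBS controls were 9.84 at the lowest, 10.10 at the median and 10.26 at the highest. Gsdmd also passed in 0 of 24 and had 0 at an unadjusted p below 0.05, with estimates of -0.26 to 0.06 under PBS and -0.05 to 0.24 under OVA. In PBS controls Gsdmd levels were between 9.62 and 9.87, with a median of 9.70, and the largest group mean, with CuO 10 + OVA, was 10.02. The 2 Gsdmd probes gave median log2 fold changes of -0.10 and 0.08 over the 24 comparisons, so averaging them brought the gene closer to 0. All Gsdmd samples lay below the lowest PBS control in 3 of 12 groups, CuO COOH 40, CuO NH3 2.5 and CuO NH3 40, beside 9.85% of all gene tests, at differences of the means of -0.21 to -0.17. In 4 OVA groups, CuO COOH 2.5, CuO COOH 40, CuO NH3 2.5 and CuO NH3 10, all Casp8 samples were above the highest OVA control (10.38), against 5.59% of all gene tests. The standard errors of the Casp8 estimates, 0.13 to 0.39, leave changes of about the size of the threshold undetectable in the less precise comparisons. Calls of these genes appeared in models without array or slide as a fixed term. With replicate number as a term in place of the array, each gene passed in 5 of 24 comparisons. There 6.27% of all gene tests were called under PBS and 4.67% under OVA. These Casp8 and Gsdmd calls were all in CuO NH3 or CuO PEG groups, which lay on slides 4 to 6, while controls lay on slides 1 to 6. That model has no slide term, so it does not separate slide from exposure. With the array as a random term, Gsdmd passed with CuO COOH 40 against PBS, where 5.38% of all PBS gene tests were called.

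The transcripts of BIM and PUMA passed in no exposure comparison of the main fits. With replicate number as a term in place of the array, Bbc3 passed with CuO NH3 2.5 and CuO PEG 10 against PBS. In that model 6.27% of all gene tests under PBS were called. It has no slide term, and both of these groups lay on slides 4 to 6. Bcl2l11 passed in 0 of 24 exposure comparisons with 1 test at an unadjusted p below 0.05, and its estimates ran from -0.22 to 0.30. Its samples in PBS controls ranged from 7.28 to 7.45 with a median of 7.34, and its 4 probes had median log2 fold changes of -0.14 to 0.20. The brightest of these probes ran from -0.66 to 0.40 and another from -0.07 to 0.53, so the gene average hides differences between probes. Each of the 4 had 0 calls. All Bcl2l11 samples lay below the lowest PBS control in 3 of 12 groups, CuO COOH 10, CuO NH3 2.5 and CuO NH3 40, again beside 9.85% of all gene tests. Bbc3 passed in 0 of 24 with 3 tests at an unadjusted p below 0.05 and estimates of -0.34 to 0.53. The highest Bbc3 estimate, with CuO COOH 2.5 + OVA (0.53 ± 0.16 SE, adjusted p = 0.456), rested on samples at 9.72, 9.50 and 9.27 against OVA controls of 9.33 to 9.72, which overlapped, and the difference of the printed means was opposite in direction, at -0.05. At 40 µg/mouse against PBS, the Bbc3 fit and means had 1 direction with CuO (-0.34 and -0.21) and CuO NH3 (-0.27 and -0.21) and opposite directions with CuO COOH (0.23 and -0.24) and CuO PEG (-0.23 and 0.06).

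**Figure D3:**
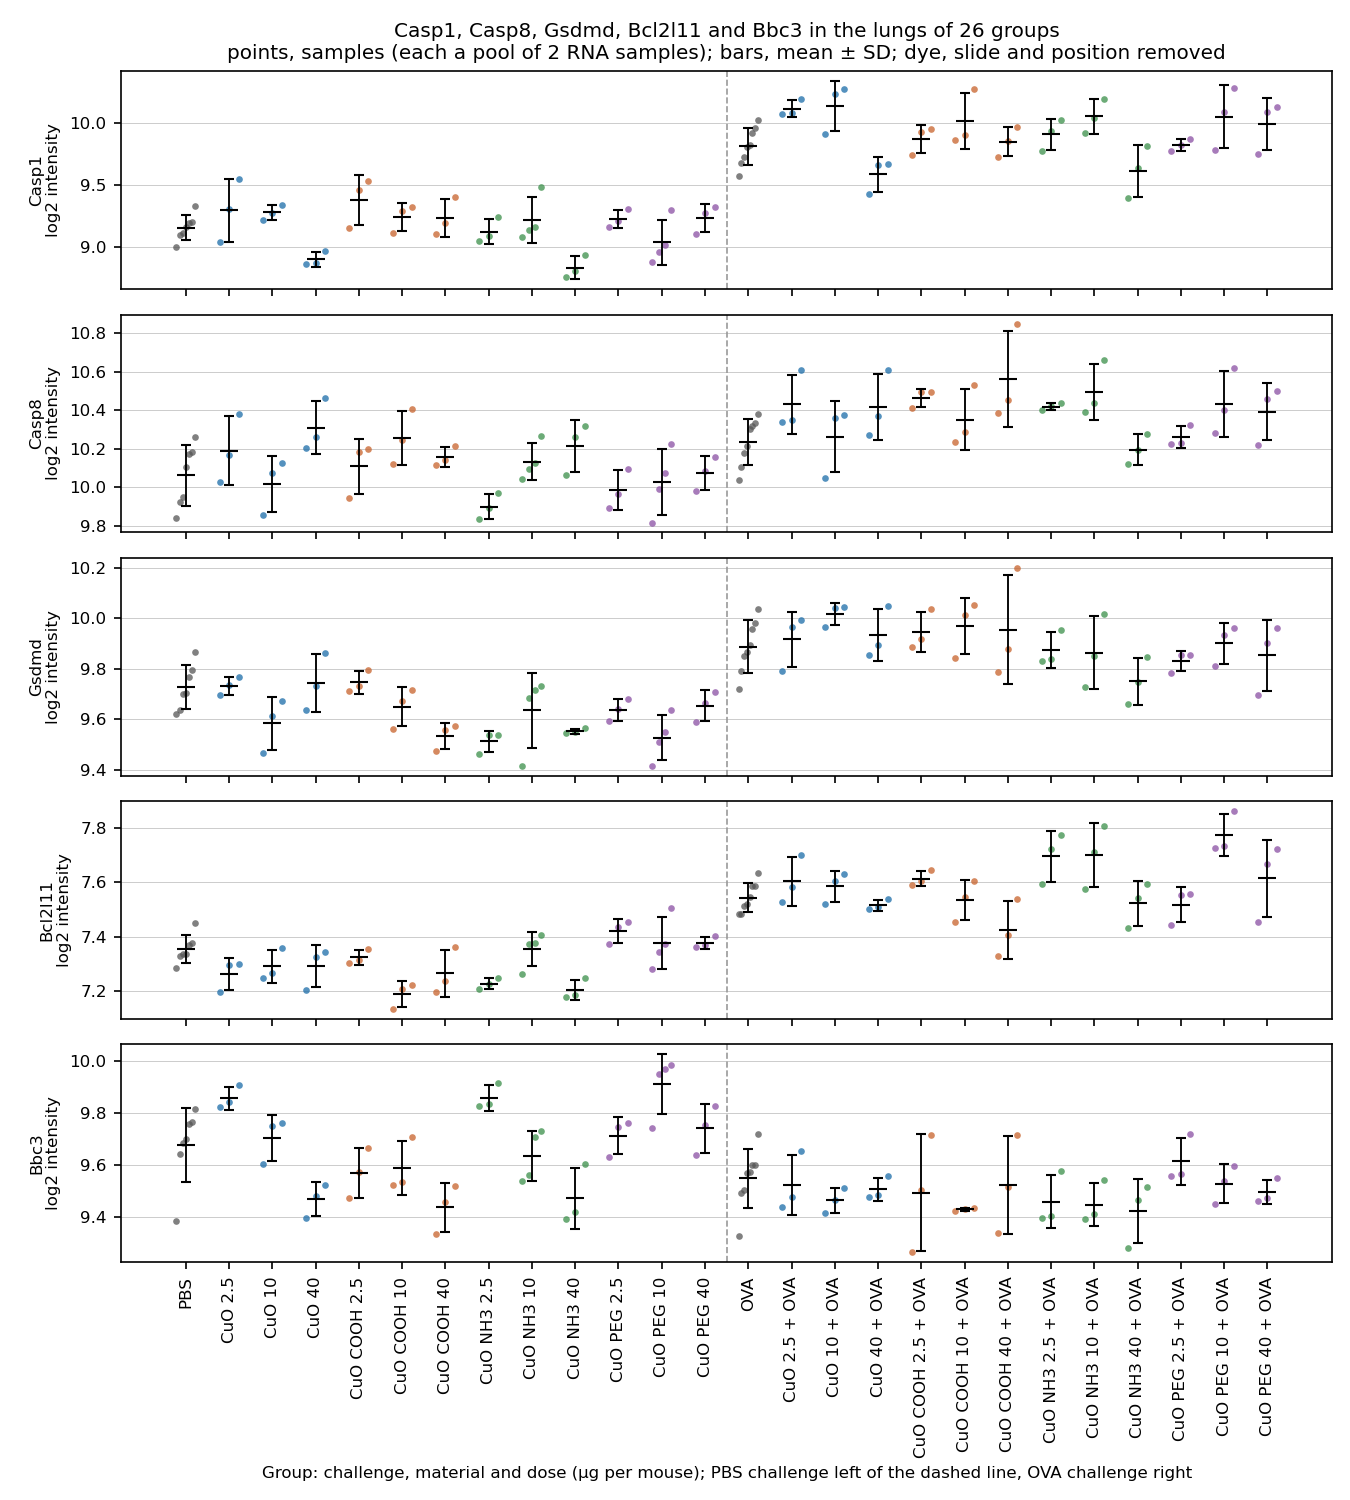
Log2 intensity of Casp1, Casp8, Gsdmd, Bcl2l11 and Bbc3 in each sample (points) of the 26 groups, with mean ± SD as bars and a separate axis for each gene. The group means of Gsdmd span 9.51 to 10.02, and Casp1 and Bcl2l11 samples of OVA controls lie above all samples of PBS controls.

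Challenge with OVA alone raised Ripk3, Casp4 and Casp1. Of the 8 members 3 passed in OVA against PBS controls, all higher, where 3.72% of all genes were called higher, and 5 had an unadjusted p below 0.05. Ripk3 in OVA controls was 9.65 at the lowest, 9.82 at the median and 10.12 at the highest, so all 8 samples were above all 7 PBS controls, and the fit gave 2.19-fold (log2 1.13 ± 0.13 SE, adjusted p = 9.24e-07). Casp4 ran from 10.76 to 11.33 with a median of 11.08, again without overlap, and rose 1.90-fold (0.93 ± 0.18, adjusted p = 8.05e-04). Casp1 ran from 9.58 to 10.02 with a median of 9.81, above the PBS controls, and rose 1.59-fold (0.67 ± 0.16, adjusted p = 0.00512). The Casp1 call was lost without PBS replicate 2 or OVA replicate 3 (each 0.66, adjusted p = 0.0947), which shared an array. Mlkl gave 0.33 ± 0.13 (adjusted p = 0.0941) and its samples, 8.06 to 8.59, overlapped the PBS controls. Bbc3 gave -0.27 ± 0.10 (adjusted p = 0.0831). Bcl2l11 (7.48 to 7.63 in OVA controls against 7.28 to 7.45 in PBS controls) did not overlap either, at a log2 fold change of 0.16, and Gsdmd and Casp8 each gave 0.12. All OVA controls were above all PBS controls for 9.11% of all genes.

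On top of OVA challenge, Ripk3 passed with all 3 doses of CuO NH3, and Mlkl with 1 dose each of CuO COOH, CuO NH3 and CuO PEG. The Ripk3 samples of CuO NH3 40 + OVA were 10.38, 10.44 and 10.61, above the highest OVA control (10.12), and the log2 fold change was 0.77 ± 0.16 SE (adjusted p = 0.00524). Ripk3 also passed with CuO NH3 10 + OVA (0.67 ± 0.16, adjusted p = 0.0237), whose samples at 10.07, 10.46 and 10.19 overlapped the controls, and narrowly with CuO NH3 2.5 + OVA (0.58 ± 0.14, adjusted p = 0.0458). With CuO + OVA the estimates were 0.93 ± 0.30, 0.67 ± 0.17 and 0.66 ± 0.21 over the 3 doses without passing (adjusted p = 1.00, 0.117 and 0.115), where the printed means differed by only 0.28, 0.30 and 0.08. CuO COOH 40 + OVA had an adjusted p of 0.0286 but a log2 fold change of 0.53, short of 0.58. Without 1 sample the CuO NH3 40 + OVA call was lost in 1 case (CuO NH3 40 + OVA replicate 1, 0.73, adjusted p = 0.0611), the CuO NH3 10 + OVA call without its replicate 3 or OVA replicate 7 (each 1.00, adjusted p = 0.411) or its replicate 2 (0.56), and the CuO NH3 2.5 + OVA call without any of its 3 samples or OVA replicates 1, 2, 3, 4, 6 and 8, at 0.55 to 0.59. With slide and position as terms in place of the array, the CuO NH3 10 + OVA and CuO NH3 2.5 + OVA changes were 0.39 and 0.40, with the array as a random term 0.51 and 0.53, and neither passed. The latter did not pass after normexp (0.57) or loess and Aquantile (0.56) or against controls of the same slides (0.52) either.

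Mlkl in OVA-challenged lungs passed with CuO COOH 40 (0.86 ± 0.15 SE, adjusted p = 0.0012), CuO NH3 10 (0.88 ± 0.16, adjusted p = 0.00476) and CuO PEG 40 (0.93 ± 0.18, adjusted p = 0.0175). The samples were 9.20, 9.16 and 9.28 with CuO COOH 40 + OVA, 8.64, 9.12 and 8.96 with CuO NH3 10 + OVA, and 9.09, 8.80 and 9.18 with CuO PEG 40 + OVA, each above the highest of the OVA controls (8.59, with 8.06 the lowest and 8.35 the median). In 6 of the 12 OVA groups all Mlkl samples exceeded all controls, against 5.59% of all gene tests. CuO NH3 10 and CuO PEG 40 passed for Mlkl under OVA and not under PBS, but the difference between the challenges did not pass, at 0.59 ± 0.20 (adjusted p = 0.407) and 0.57 ± 0.25 (adjusted p = 0.957). The calls were lost without CuO COOH 40 + OVA replicate 1 or OVA replicate 1 (each 0.68, adjusted p = 0.231), without CuO NH3 10 + OVA replicate 3 or OVA replicate 7 (each 0.80, adjusted p = 0.59), and, for CuO PEG 40 + OVA, without its replicate 1 (0.75, adjusted p = 0.057), its replicate 3 (0.98, adjusted p = 0.205) or OVA replicate 7 (0.88, adjusted p = 0.414). The CuO NH3 10 + OVA change was 0.47 with the array as a random term and 0.57 with slide and position as terms, short of 0.58 in both. Casp4 under OVA passed in 0 of 12, with 3 tests at an unadjusted p below 0.05 and estimates of -0.17 to 0.71.

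Whether an exposure acted differently under the 2 challenges was tested directly. Ripk3 with CuO COOH 40 was the 1 member test of 96 to pass, against 0.349% of all gene tests in the 12 comparisons and 1.07% in this one, and the effect under OVA was smaller than under PBS by a log2 difference of -1.02 ± 0.24 SE (adjusted p = 0.0356). The samples were 9.86, 9.57 and 9.82 without OVA and 10.45, 10.23 and 10.01 with it, so the OVA-exposed level was no lower, and the PBS and OVA controls differed from the start. The same difference was -0.87 ± 0.23 with CuO 40 (adjusted p = 0.0767) and -0.71 ± 0.21 with CuO NH3 40 (adjusted p = 0.0892), and 14 of the 96 tests had an unadjusted p below 0.05. The CuO COOH 40 difference did not pass without any of CuO COOH 40 replicates 1 to 3, CuO COOH 40 + OVA replicate 3, PBS replicates 1 and 3 or OVA replicate 4, at -1.46 to -0.78. For Casp4 the difference was below 0 in 10 of 12 exposures and passed in none of them, with -0.78 ± 0.29 for CuO NH3 40 (adjusted p = 0.223).

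**Figure D4:**
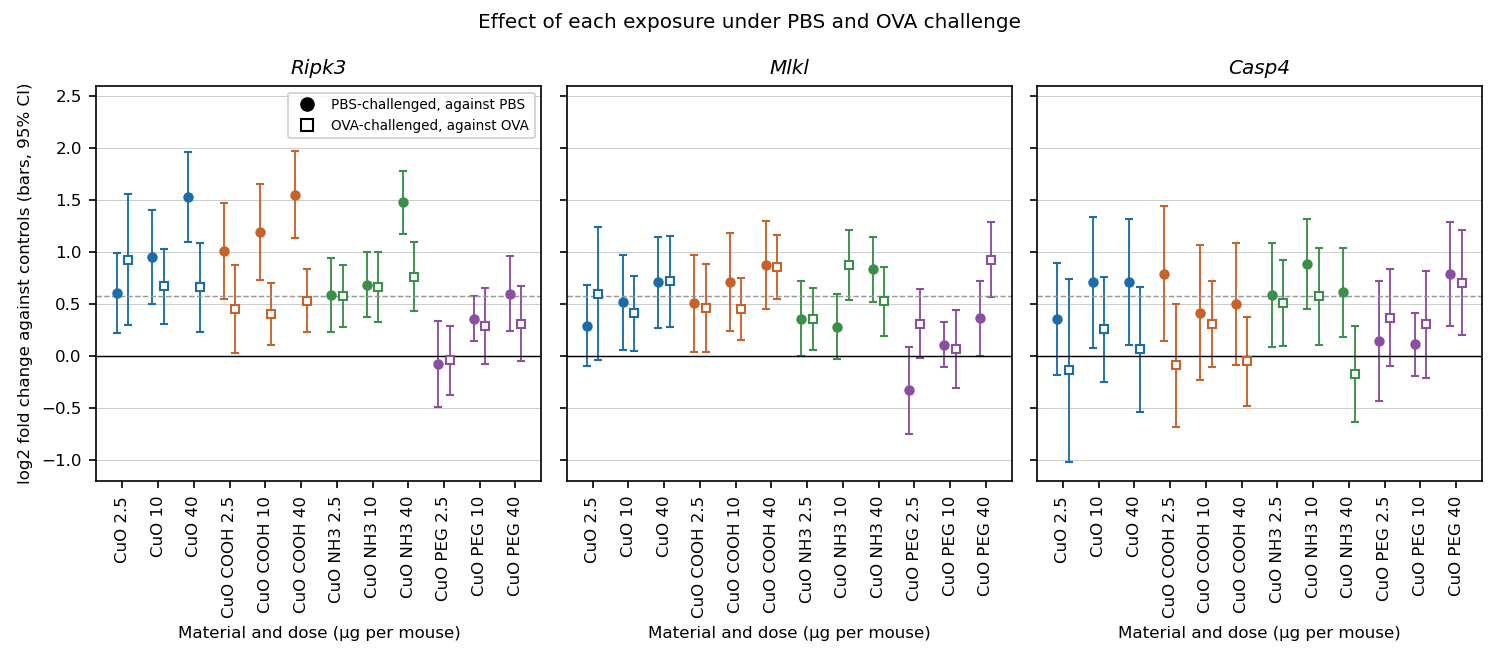
Log2 fold change with 95% confidence interval of each exposure under PBS challenge (filled circles, against PBS controls) and OVA challenge (open squares, against OVA controls) for Ripk3, Mlkl and Casp4, with the dashed line at 0.58. For Ripk3 at 40 µg/mouse the circles of CuO, CuO COOH and CuO NH3 lie at 1.48 to 1.55 and the squares at 0.53 to 0.77.

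The surface modifications were set against core CuO given at an equal dose under the same challenge, with slide and position in the model. CuO and CuO COOH lay on other slides than CuO NH3 and CuO PEG, and controls on both sets of slides link them. Equal doses are equal masses of material, not of copper. Over 18 pairs and 8 members, 2 tests passed, against 0.508% of all gene tests (4.43% for CuO PEG 40 against CuO 40 and 0.38% for CuO COOH 40 + OVA against CuO 40 + OVA), and 14 had an unadjusted p below 0.05. Ripk3 was lower with CuO PEG 40 (9.26, 9.24 and 9.05) than with CuO 40 (9.61, 9.97 and 9.83), without overlap, by a log2 difference of -0.62 ± 0.17 SE (95% CI -0.96 to -0.29, adjusted p = 0.0082 over all genes and 0.00136 over the 3 modifications). The difference was -0.38 at 2.5 µg/mouse (95% CI -0.73 to -0.02, adjusted p = 0.26), and -0.29 at 10 µg/mouse (95% CI -0.62 to 0.03, adjusted p = 0.427). The CuO PEG 40 call was lost without CuO 40 replicate 2 (-0.52, adjusted p = 0.0909), and without CuO PEG 40 replicate 3 the difference (-0.54) was short of 0.58. No difference in Ripk3 from CuO 40 was detectable with CuO COOH 40 (-0.06, 95% CI -0.33 to 0.22) or CuO NH3 40 (0.18, 95% CI -0.16 to 0.52).

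In OVA-challenged lungs Mlkl was higher with CuO COOH 40 + OVA (9.20, 9.16 and 9.28) than with CuO 40 + OVA (8.60, 8.72 and 8.55), by 0.59 ± 0.15 SE (95% CI 0.30 to 0.88, adjusted p = 0.0422 over all genes and 5.19e-04 over the 3 modifications). With the array as a term in place of slide and position this difference was 0.13 (adjusted p = 1.00), and it did not pass without any of the 3 CuO COOH 40 + OVA samples or without CuO 40 + OVA replicates 1 or 3, at 0.55 to 0.62. Ripk3 with CuO PEG 40 + OVA stood at 9.98, 9.71 and 10.11 beside 10.02, 10.05 and 9.71 with CuO 40 + OVA, a difference of 0.01 (95% CI -0.35 to 0.37), whereas at 2.5 µg/mouse it was -0.55 (95% CI -0.95 to -0.15, adjusted p = 0.516 over all genes and 0.0246 over the 3 modifications). Ripk3 with CuO NH3 40 + OVA was above CuO 40 + OVA by 0.55 ± 0.17 (95% CI 0.22 to 0.89), with an adjusted p of 0.102 over all genes and 0.00527 over the 3 modifications. For Casp4, CuO PEG 40 + OVA exceeded CuO 40 + OVA by 0.54 ± 0.20 (95% CI 0.14 to 0.94, adjusted p = 0.258 over all genes).

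**Figure D5:**
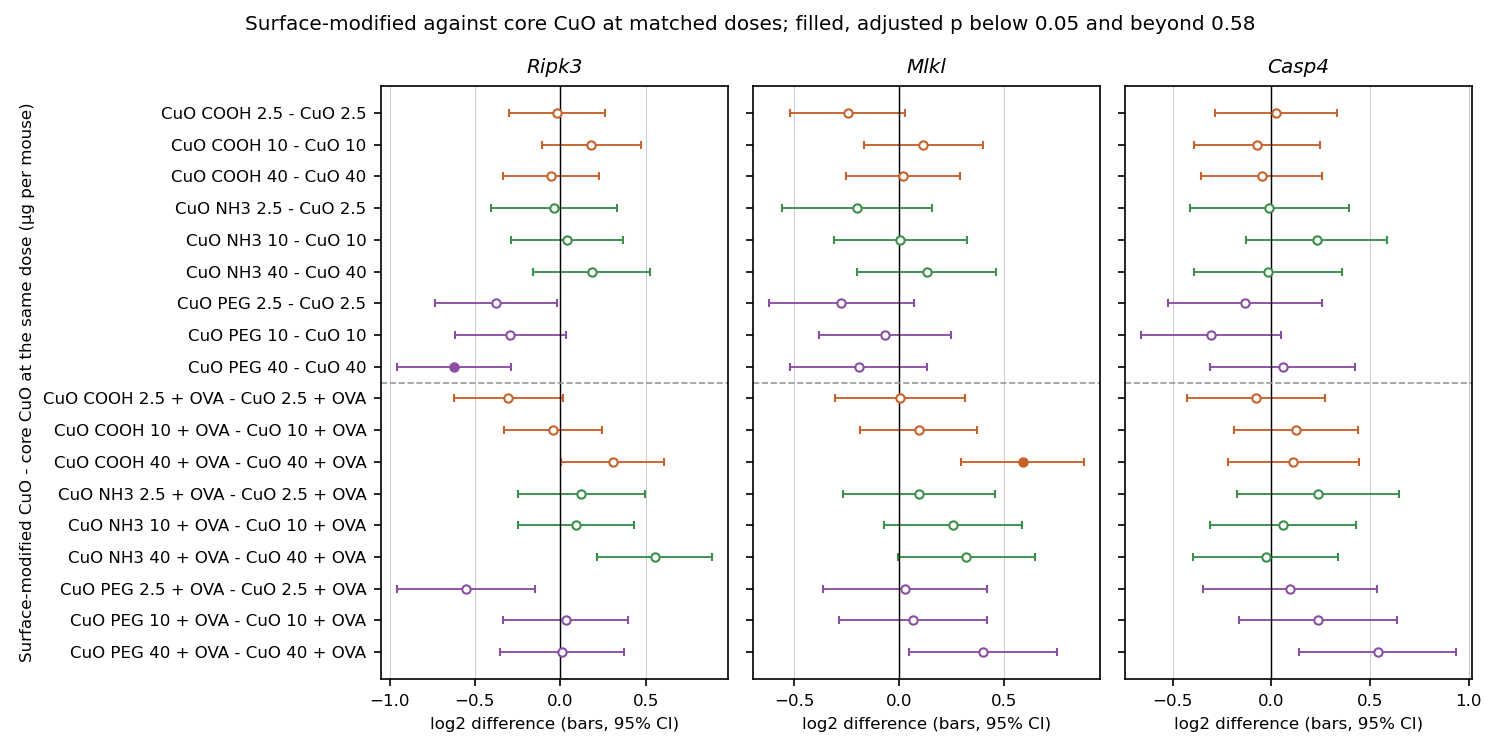
Log2 difference with 95% confidence interval between each surface-modified CuO and core CuO at the same dose, under PBS challenge (above the dashed line) and OVA challenge (below it), for Ripk3, Mlkl and Casp4, with calls filled. The interval of Ripk3 for CuO PEG 40 runs from -0.96 to -0.29, and that of Mlkl for CuO COOH 40 + OVA from 0.30 to 0.88.

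Raising the dose from 2.5 to 40 µg/mouse raised Ripk3 with 3 materials under PBS challenge. Of 64 tests over 4 materials, 2 challenges and 8 members, 4 passed, all higher, against 1.3% of all gene tests, and 12 had an unadjusted p below 0.05. Ripk3 rose between these doses by 0.93 ± 0.24 SE with CuO (adjusted p = 0.026), 0.89 ± 0.15 with CuO NH3 (adjusted p = 3.47e-04) and 0.68 ± 0.19 with CuO PEG (adjusted p = 0.0445), and Mlkl by 0.69 ± 0.20 with CuO PEG (adjusted p = 0.0405). Of all genes, 4.33%, 7.19% and 4.34% were called in these steps of CuO, CuO NH3 and CuO PEG in either direction. The CuO NH3 step was kept without each sample, the CuO step was lost without CuO 40 replicate 2, CuO 2.5 replicate 2 or CuO 2.5 replicate 3 (0.87 to 0.90), and both CuO PEG steps were lost without any of CuO PEG 40 replicates 1 to 3 or CuO PEG 2.5 replicates 2 and 3. With slide and position as terms the CuO PEG steps were 0.40 for Ripk3 and 0.28 for Mlkl and did not pass. The CuO COOH step was 0.54 ± 0.25 for Ripk3 (adjusted p = 0.462).

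Ordered by mean level, the 26 groups formed a gradient with few breaks. The Ripk3 order ran from CuO NH3 40 + OVA (10.48) to PBS (8.53), and the samples of neighbouring groups overlapped in 23 of 25 steps. The breaks followed CuO NH3 40 + OVA and CuO PEG 2.5 + OVA, the latter being the lowest of the OVA-challenged groups at 9.57 ± 0.09 (SD, n = 3), below every OVA control (9.65 at the lowest), a pattern that 4.79% of all gene tests showed. The highest PBS-challenged group, CuO NH3 40 at 9.99 ± 0.02, stood ninth of the 26. For the other 7 members, neighbours overlapped in 25 of 25 steps. Mlkl ran from CuO COOH 40 + OVA (9.21) to PBS (7.95), Casp4 from CuO PEG 40 + OVA (11.49) to PBS (10.25), and Casp1 from CuO 10 + OVA (10.14) to CuO NH3 40 (8.83).

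The 26 group means mix both challenges and share controls, arrays and slides, so their correlations are a description. The closest pairs of members were Casp1 and Bcl2l11 (Pearson correlation 0.88), Ripk3 and Mlkl (0.87) and Casp1 and Gsdmd (0.87). Bbc3 ran against every other member (-0.81 with Ripk3 to -0.47 with Bcl2l11). Over the whole array the genes most like Ripk3 were Ada, Slc16a6 and Serpina3i (0.98 each), those most like Mlkl were Fcgr1, Ccdc86 and Tlr13 (0.94 to 0.95), and those most like Casp4 were Ly86, Slc2a6 and Naip2 (0.95 to 0.96). Casp1 was most like Naip6, Lair1 and Il10ra (0.96 to 0.98), Casp8 like Acp2, Esyt1 and Tor3a (0.90 to 0.92) and Gsdmd like Pld4, Themis2 and Samhd1 (0.89 to 0.90). The nearest to Bcl2l11 were Arhgap9, Prkcb and Ddhd1 (0.95 to 0.97) and to Bbc3 Brd1, Mark3 and Wfdc16 (0.89 to 0.91).

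Neighbours of the members in the death pathways were counted from lists, beside 2.77% of all gene tests called higher and 1.65% lower in the 12 PBS comparisons. Of 24 inflammasome genes and caspase-1 substrates, 22 of 288 tests were higher and 6 lower under PBS. Il1rn, the natural antagonist of the interleukin 1 receptor, Il33, an epithelial alarmin, and Pycard, the inflammasome adaptor, rose in 7, 7 and 5 of the 24 exposures, and Il1b in 2, by 2.05 on the log2 scale with CuO 40 and 1.42 with CuO NH3 40. With CuO 40 the log2 rises of Il1rn, Il33 and Pycard were 1.45, 1.90 and 0.83, and with CuO PEG 40 Il33 alone of these 4 rose, by 1.14. Of the 13 gasdermin and membrane rupture genes, 6 of 156 tests were higher and 2 lower under PBS. Ninj1, which ruptures the membrane after pore formation, rose in 6 of 24 exposures, by 1.13 with CuO 40 against PBS and 1.11 with CuO 40 + OVA against OVA, and Gsdme, another pore-forming gasdermin, rose by 1.37 with CuO 40, 1.17 with CuO NH3 40 and 1.33 with CuO NH3 40 + OVA. Perforin (Prf1) fell in 3 exposures, with -1.11 at CuO NH3 40, and Chmp4b, of the membrane repair machinery, rose in 1 (CuO COOH 40, 0.61).

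Of 22 genes of death receptors and necroptosis other than the members, 8 of 264 tests were higher and 5 lower under PBS. Tnf rose in 6 exposures, by 1.35 with CuO 40 and already by 1.42 with CuO 2.5, while Tnfsf10, which encodes the death ligand TRAIL, fell in 5, with -1.74 at CuO 40. Eif2ak2 passed with CuO COOH 40 + OVA (0.81) and Tnfaip3 with CuO NH3 10 (0.71). Of 19 genes of the BCL2 family and apoptosome, 15 of 228 tests were higher and 3 lower under PBS. Bok and Bax, pore-forming members, rose by 0.93 and 0.88 with CuO COOH 40, and Bcl2a1d, a survival member, by 0.78 with CuO 2.5. Mcl1, another survival member, had a log2 fold change of -0.77 with CuO 40. Of 21 interferon-induced genes, 3 of 252 tests were higher and 10 lower under PBS. The 3 higher were all Cxcl10 (2.76, 3.43 and 2.73 with CuO 40, CuO COOH 40 and CuO NH3 40, with SE of 0.67 to 0.95), whereas Gbp4, Psmb9 and Gbp7 had log2 fold changes of -1.77, -0.91 and -1.02 with CuO 40. Of 19 p53 and stress-induced regulators, 17 of 228 tests were higher and 9 lower under PBS. Cdkn1a, the cell cycle inhibitor induced by p53, rose by 1.49 with CuO 40, and Phlda3 by 0.78 and Atf3 by 1.52, while Trp53 itself rose in 3 exposures, by 0.65 to 1.40. Bbc3, a known p53 target, did not pass in any of them. In the 12 exposure comparisons under OVA, 0.691% of all gene tests were called higher. Higher there were 2 of 288 inflammasome, 4 of 156 gasdermin and rupture and 2 of 264 death receptor and necroptosis tests. Lower in these lists were 3, 1 and 1. Of the BCL2 family, interferon-induced and p53 and stress tests, 2 of 228, 3 of 252 and 4 of 228 were higher, and 1, 6 and 0 lower. In OVA against PBS controls 6 of 24 inflammasome, 1 of 13 gasdermin and rupture, 2 of 22 death receptor and necroptosis, 3 of 19 BCL2 family, 4 of 21 interferon-induced and 1 of 19 p53 and stress genes were higher and 0 lower, where 3.72% of all genes were called higher.

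Markers of leukocytes and of resident cells also changed in exposed groups, though not in every list or material. Under PBS, 41 of 168 tests of 14 monocyte and macrophage markers and 34 of 168 of 14 neutrophil markers were higher, and 17 of 72 of 6 endothelial markers were lower. Over all genes in these comparisons, 2.77% of tests were called higher and 1.65% lower. With CuO 40, 10 of 14 neutrophil markers were higher and 1 lower, with CuO NH3 40 8 were higher and 1 lower, and the medians of the list were 1.93 and 1.21 on the log2 scale. The share of all genes called higher was 7.96% with CuO 40 and 7.27% with CuO NH3 40. The summed intensity of the neutrophil list, which its brightest probes dominate, ran from 70105 to 91841 in PBS controls, 86008 to 106836 with CuO 40, 69690 to 77955 with CuO COOH 40 and 90756 to 121733 with CuO NH3 40. The macrophage sum ran from 61305 to 78420 in PBS controls, 69665 to 77672 in OVA controls and 60036 to 73781 over the groups given CuO 40, CuO COOH 40 and CuO NH3 40 under PBS. Neither the neutrophil nor the macrophage sum lay above every PBS control in any of the 12 PBS-challenged exposed groups, and the neutrophil sum lay below every control in 2. In OVA controls 9 of 14 macrophage markers were higher than in PBS controls, where 3.72% of all genes were called higher. The eosinophil sum ran from 1154 to 1423 in PBS and from 2101 to 3269 in OVA controls. The endothelial sum fell from 73211 to 114271 in PBS controls to 39721 to 44603 with CuO 40 and 48602 to 67766 in OVA controls. Of the markers, the neutrophil granule gene Ngp was well above background in 32 samples and the eosinophil granule gene Epx in 43. The summed NK cell list had a median of 0.221 times that of PBS controls with CuO 40, 0.408 with CuO COOH 40 and 0.235 with CuO NH3 40, and the T cell list 0.395, 0.546 and 0.496 times, with all samples below every PBS control. The B cell and eosinophil sums also lay below every PBS control in these 3 groups, at 0.507 to 0.633 and 0.491 to 0.722 times. The brightest genes of the eosinophil list, Siglecf and Ear6, were called lower in 8 and 2 of the 24 exposures. Its granule genes Prg2 and Epx were called higher in 4 and 2. The paper found lavage eosinophils only in OVA-challenged groups, and this sum is not a count of eosinophils. The ciliated and club cell sum was 0.375 times that of PBS controls with CuO NH3 40. In OVA controls the T cell sum was 1.40 times that of PBS controls and above all of them. In OVA-challenged lungs the neutrophil sum lay above every OVA control in 8 of 12 exposed groups, at up to 1.77 times with CuO NH3 40 + OVA, and the NK cell sum lay below every OVA control in 7 of 12. Of all single-gene tests in these comparisons, 5.59% lay above and 4.79% below every OVA control. For correlations over the 26 group means, each list was taken as the log2 of its summed intensity, which its brightest probes dominate. The 26 groups mix both challenges, so these correlations also carry the difference between OVA and PBS challenge. With CuO 40, CuO COOH 40 and CuO NH3 40 under PBS the eosinophil sum was lower than in controls while Ripk3 was called higher. The brightest gene of the neutrophil list, Csf3r, was called lower in 2 of 24 exposures. That of the macrophage list, Ly6c2, was called in 0. The endothelial list correlated with Ripk3 at -0.94, with Mlkl at -0.86 and with Casp4 at -0.69, and the alveolar type 1 list at -0.91, -0.75 and -0.87. The ciliated and club cell list gave -0.80, -0.71 and -0.52, the eosinophil list 0.62, 0.51 and 0.75, the neutrophil list 0.42, 0.50 and 0.31, and the macrophage list 0.45, 0.59 and 0.62. The T, B, NK and alveolar type 2 cell lists lay between -0.30 and 0.49 with these 3 genes. Casp1 and Bcl2l11 correlated most closely with the eosinophil list (0.90 and 0.93). The part of these cell markers in the changes of the members was not tested.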

How the data were processed

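Lung RNA of 89 samples in 26 groups was measured on 46 two-colour Agilent arrays on 6 slides, with 1 sample in each dye of 43 arrays and 1 sample on each of 3. The deposited scanner files hold spot intensity values from Feature Extraction (12.0.2.2 in the file headers), and the authors also deposited a table of log2 expression values, which ranked probes like the intensities in all samples and served as an alternative. From the intensities, the median foreground was taken on the log2 scale without background subtraction and quantile normalised. Control spots (3671 of 62976) and outlier spots were left out, and 32994 of 56605 probes were averaged to 22911 genes through their accessions and RefSeq symbols. Tests used limma 3.58.1 in R 4.3.3 with dye and array as terms (dye, slide and position for materials) and Benjamini-Hochberg adjustment over all genes. This model compares samples largely within arrays, so leaving out a sample also removes what its array partner contributed. Median foreground per sample was 62 to 203, or 1.38 to 4.34 times background. The number of arrays limits the precision. The genes, lists and tests were chosen with earlier results of these data known. From each list the genes with the most calls were named, 4 per list, and the list of other caspases is not reported here. The fit was tested on simulated data.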

Additional observations from a re-analysis of the deposited data

Results flagged for a closer look

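Of 32 pairs of a member and a group of 4 to 10 samples, 3 held a sample far from the others of its group by Dixon's ratio of gap to range, where chance alone marks about 1 in 20 groups. Bbc3 in CuO PEG 10 replicate 1 stood at a log2 level of 9.74 against 9.95 to 9.99 in the other samples of the group (ratio 0.852, n = 4). Bbc3 in PBS replicate 1 stood at 9.38 against 9.64 to 9.82 (ratio 0.598, n = 7). Gsdmd in CuO NH3 10 replicate 3 stood at 9.42 against 9.68 to 9.73 (ratio 0.852, n = 4). None of these samples decided a call of its gene in the main fits, where Bbc3 and Gsdmd had none. With replicate number as a term in place of the array, Bbc3 passed with CuO NH3 2.5 and CuO PEG 10 against PBS controls. Both comparisons include a flagged Bbc3 sample, and its part in these calls was not tested. The exposed groups of both lay on slides 4 to 6, and that model has no slide term.

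The effect of CuO COOH 40 on Ripk3 differed between the challenges, by a log2 difference of -1.02 ± 0.24 SE (limma, adjusted p = 0.0356 over all genes). It was 1.55 against PBS controls and 0.53 against OVA controls, and 7 of the 21 samples ended the call when left out.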

How the results depend on the processing

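Of 28 calls of members, 14 were kept under every alternative and 6 without each sample in turn. Leaving out dim probes (1 Bcl2l11 probe), keeping outlier spots and using the deposited value table changed no call. Without dim probes the share of all gene tests called was larger, at 7.2% under PBS and 2% under OVA. For OVA against PBS controls it was 8.32%, and 5.23% with dim probes kept. ComBat before the fit raised the calls from 12 to 19 under PBS, 6 to 11 under OVA, 2 to 7 between materials, 1 to 10 for differences between challenges and 4 to 8 between doses, while the calls among all gene tests rose as well, from 4.41% to 6.87%, 1.2% to 3.52%, 0.508% to 3.92%, 0.349% to 4.68% and 2.19% to 6.29%. With the array as a random block there were 3 calls under OVA, 11 between materials and 3 between challenges (2.12%, 3.24% and 1.39% of all gene tests). With the other batch terms there were 1 between materials and 5 between challenges (0.232% and 1.55% of all gene tests). Loess normalisation gave 1, 2 and 2 calls between materials, challenges and doses (0.506%, 0.409% and 2% of all gene tests). Normexp gave 1 between materials (0.458%). Replicate numbers did not pair the samples: deviations of same-numbered samples correlated at a median of -0.03 (lowest -0.42), and 12 of 89 samples correlated best with their own number. The replicate block gave 11 calls under OVA, 11 between materials and 3 between challenges, where 4.67%, 3.52% and 1.41% of all gene tests were called. Over the 24 exposure comparisons it gave Ripk3 9, Casp8 5, Gsdmd 5, Bbc3 2, Mlkl 1 and Casp4 1. The main fits gave these genes 10, 0, 0, 0, 6 and 2. The replicate block has no slide term, and its Casp8, Gsdmd and Bbc3 calls were all in CuO NH3 or CuO PEG groups. Leaving out 1 sample gave 8 to 13 calls under PBS, 3 to 8 under OVA, 2 to 3 for OVA against PBS controls, 0 to 2 between materials, 0 to 3 between challenges and 2 to 4 between doses. Without CuO NH3 10 replicate 4 there were 8 under PBS, and without CuO NH3 10 + OVA replicate 3 there were 3 under OVA. Single values were followed for 60 member results, and 3 of them, all uncalled, changed sign. The Casp1 difference between challenges for CuO COOH 2.5 (-0.65) was 0.071 with the replicate block, 0.018 without CuO COOH 2.5 + OVA replicate 1 or PBS replicate 1 and -0.95 without CuO COOH 2.5 replicate 1. The Casp4 dose step of CuO PEG (0.65) was -0.13 without CuO PEG 2.5 replicate 3 and 0.80 without CuO PEG 40 replicate 1. The Bbc3 dose step of CuO COOH + OVA (-0.59) was 0.028 with the other batch terms and 0.055 with the replicate block. The cause of these changes was not tested. Signal over background limits Bcl2l11, whose dimmest probe was well above background in 43 samples.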
